A study of Homo sapiens with 8 samples.

Results

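The members described here were crosslink sites of the anticodon loop of human tRNA, taken as positions 32 to 38 counted from the 5′ end of each tRNA reference. This fixed window is called the loop below, although in some families it is shifted against the loop itself by 1 base. Sites of the sense strand were summed over the references that share an amino acid and an anticodon, called a family here. Of 350 possible combinations of 50 families and 7 positions, 324 held at least 1 count, against 2799 family positions on tRNA as a whole. They came from 997 of 8363 tRNA reference sites and from 184 of 252 references, while the whole series held 16258 sense sites. tRNA-Gly-TCC, and a family that the files name tRNA-Asn-26, had no count in the loop.

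Dihydrouridine synthases are flavin enzymes that reduce uridine in tRNA to dihydrouridine, and their known target bases lie mainly in the D loop. The anticodon loop is the part of tRNA that reads the codon. Its wobble base and the base directly 3′ of the anticodon are among the most often modified bases of tRNA. In iCLIP, a protein is crosslinked to RNA with light and purified, and the end of each cDNA marks the contact at single-nucleotide resolution.

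All samples were Flp-In T-REx 293 cells, a human embryonic kidney line that carries one inducible transgene. The groups were DUS1L cells with 100 µM 5-chlorouridine (5-ClUrd) and DUS1L cells without it, then DUS2L cells with 100 µM 5-ClUrd and DUS2L cells without it, with 2 libraries each. DUS1L and DUS2L carried a 3xFLAG tag, and all groups received 1 µg/mL tetracycline for 12 h before and 12 h during the treatment. 5-ClUrd is a uridine analogue that cells can build into RNA and that can hold such enzymes on their target. The 2 libraries of a group are called biological replicates in the series text. No library of untagged cells was used here, so counts that do not depend on the enzyme were not measured.

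Sense tRNA counts were 815735 and 538002 in treated DUS1L libraries, against 142422 and 7333 in untreated ones. They were 361252 and 347128 in treated DUS2L libraries, against 104841 and 148610 in untreated ones. The second untreated DUS1L library was thus by far the shallowest, and 64 loop family positions had a count in it, against 203 to 302 in the other 7 libraries. Replicates differed beyond sampling noise in the loop counts of families, with a chi-square per degree of freedom between 11.6 and 74.4.

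The sequences below show where the linear positions fall on the loop, in the RefSeq annotation of GRCh38.p14. Capitals mark positions 32 to 38, 5′ to 3′ from the first base of the gene, over 49 bases for Leu-CAA and 50 for the others. They are shown for families described below that had a sequence at hand. None is shown for Gly-GCC, Lys-TTT, Arg-CCT, Arg-TCT, Arg-TCG and other families, so where their positions lie on the loop was not established. The Leu-CAA and Ile-TAT genes carry an intron after the anticodon, so the last bases shown there are not in the mature tRNA. These lines assume that a reference starts at the first base of the gene, which the files do not show.
tRNA-Phe-GAA-1-5, chr13:94549650-94549722, minus strand: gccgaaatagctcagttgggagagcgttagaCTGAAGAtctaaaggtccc
tRNA-Arg-ACG-2-1, chr3:45688999-45689071, minus strand: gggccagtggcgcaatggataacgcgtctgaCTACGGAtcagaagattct
tRNA-Ala-AGC-2-2, chr6:28863685-28863756, minus strand: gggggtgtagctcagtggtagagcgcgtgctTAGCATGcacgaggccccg
tRNA-Leu-CAA-1-1, chr6:28896223-28896328, minus strand: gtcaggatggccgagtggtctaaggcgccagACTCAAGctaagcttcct
tRNA-Ile-TAT-2-2, chr6:27020346-27020439, plus strand: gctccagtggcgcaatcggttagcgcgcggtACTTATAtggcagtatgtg
tRNA-His-GTG-1-3, chr1:148281365-148281436, plus strand: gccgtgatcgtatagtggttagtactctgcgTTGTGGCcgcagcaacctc
The anticodon started at position 33 in 5 of the 20 genes with a sequence, at 34 in 6 and at 35 in 9. The same linear position is therefore not the same base of the loop in every family. With the first anticodon base numbered 34, the loop is bases 32 to 38. In genes with the anticodon at 35, such as Leu-CAA, linear position 32 is base 31, outside the loop, and base 38 is missed. In genes with it at 33, such as Ala-AGC, linear position 38 is base 39, outside the loop, and base 32 is missed. The base directly 3′ of the anticodon is at position 36 of Ala-AGC, 37 of Phe-GAA and Arg-ACG, and 38 of Leu-CAA.

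Pooled over the 16 references with a sequence, that base held the largest share of loop counts in every library. Of the 16 references with a sequence, 8 had at least 50 loop counts in treated DUS1L libraries and 4 of them had their highest count at the base 3′ of the anticodon, against 3 of 4 references in untreated DUS1L libraries. In DUS2L libraries it was 5 of 10 with treatment and 4 of 7 without. The references held 24.3% and 30.3% of their loop counts there in treated DUS1L libraries, against 58.4% and 91.4% in untreated ones. The shares were 44.1% and 47.7% in treated DUS2L libraries, against 46.7% and 44.03% in untreated ones. In DUS1L the treated libraries lay below both untreated ones, and in DUS2L the groups lay close together. Phe-GAA alone gave 82.8% of the counts at that base in the second untreated DUS1L library. Leu-CAA-1-1 gave 60.7% and 50.2% of them in the untreated DUS2L libraries. Other references led elsewhere. Where it had at least 50 loop counts, His-GTG led at position 38, the next base 3′. Ile-TAT led at position 34 or 35, before or at the first anticodon base.

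Uridine was not the base with the most loop counts. T stood at 33.04% of the loop positions of these 16 references and took 18.2% and 15.2% of their counts in treated DUS1L libraries, against 8.90% and 1.91% in untreated ones. It took 18.0% and 12.3% in treated DUS2L libraries, against 11.7% and 12.3% in untreated ones. G stood at 22.3% of positions and took 33.9% and 33.7% in treated DUS1L libraries, against 59.5% and 90.04% in untreated ones. Position 37 of Phe-GAA-1-5 gave 555 of the 660 G counts in the second untreated DUS1L library. A stood at 27.7% of positions and took 32.9% and 35.7% in treated DUS1L libraries, against 25.7% and 6.68% in untreated ones. It was thus below G in the first treated DUS1L library and above G in the second. In DUS2L libraries G took 43.7% and 45.0% with treatment, against 52.5% and 49.4% without. There A took 19.13% and 19.07% with treatment, against 15.3% and 16.1% without. The shares of positions weigh all 16 references alike, while their counts were uneven. Over the 8 libraries, loop counts ran from 0 for Pro-TGG-3-2 to 14426 for Phe-GAA-1-5. The shares of counts by base therefore also reflect which references held the counts, and a preference for a base was not tested. These shares describe few references, and whether the deposited position is the crosslinked base or its neighbour is not stated in the labels or file headers.

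The loop held less of the tRNA counts in treated libraries of both enzymes. It held 16.4% and 19.3% in treated DUS1L libraries, against 26.1% and 34.02% in untreated ones, with means of 17.8 ± 2.06% and 30.1 ± 5.60% (SD, n = 2 each). In DUS2L it held 14.1% and 10.8% in treated libraries, against 19.34% and 19.33% in untreated ones, with means of 12.5 ± 2.32% and 19.3 ± 0.0109% (SD, n = 2 each). The groups did not overlap in either enzyme, and the differences were -12.2 and -6.86 percentage points. The two-sided exact permutation p was 0.333 in each enzyme, and 2 against 2 libraries cannot give a smaller one. Wilson 95% intervals, which cover counting error only, ran from 16.3% to 16.5% in the deepest library and from 32.9% to 35.1% in the shallowest. A share can change because the loop or the rest of the tRNA changed, and the counts do not tell these apart.

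**Figure D1:**
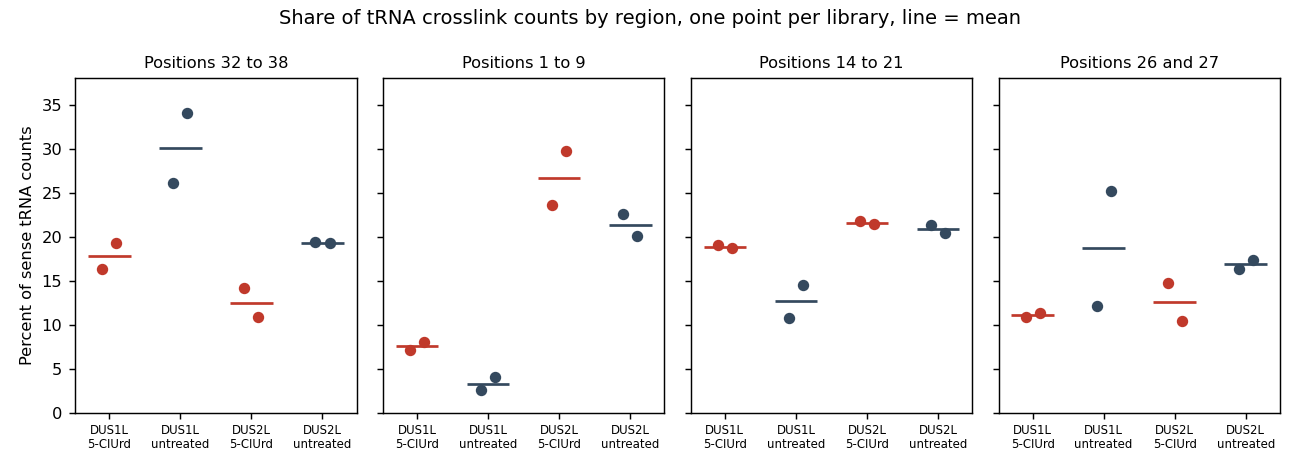
Percent of sense tRNA counts at positions 32 to 38 and, for comparison, at 1 to 9, 14 to 21 (D loop) and 26 and 27. Each point is a library and each line the mean of 2, with treated libraries in red left of untreated ones in dark blue; loop shares of treated libraries lie below the untreated ones of the same enzyme.

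Without reference sites above 500 counts in any library, which removed 736 sites on tRNA and 112 of them in the loop, the treated minus untreated difference was 2.41 points in DUS1L (exact permutation p = 1) and -9.97 points in DUS2L (exact permutation p = 0.333). The sites left out held 59.8% and 63.9% of loop counts in treated DUS1L libraries, against 80.8% and 96.7% in untreated ones. They held 62.3% and 67.1% in treated DUS2L libraries, against 69.4% and 66.9% in untreated ones. This filter is not independent of treatment, since 90 and 68 loop sites were above 500 counts in the treated DUS1L libraries themselves, against 20 and 1 in the untreated ones. As an unweighted mean over families, the DUS1L difference was -6.26 points with an exact permutation p of 0.667.

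The highest counts of a library lay close to each other in the deep DUS1L libraries. The highest and the 20th highest loop site had 1269 and 1025 counts in the first treated DUS1L library and 1061 and 954 in the second. The same ranks had 1239 and 585 counts in the first untreated DUS1L library and 555 and 16 in the second. In DUS2L they had 1001 and 635, and 982 and 497, with treatment, against 984 and 244, and 1160 and 363, without. Sites above 1000 counts numbered 27 and 13 in treated DUS1L libraries, against 11 and 0 in untreated ones. They numbered 1 and 0 in treated DUS2L libraries, against 0 and 3 in untreated ones. No loop site exceeded 1269 counts in any library, although depth differed widely. The part of a limit on the count per site in the results below was not tested.

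**Figure D2:**
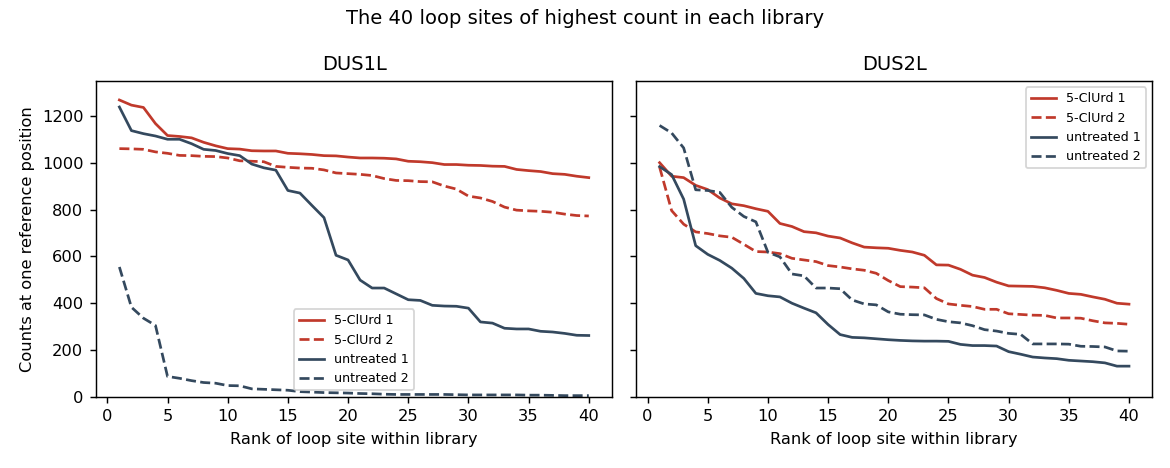
Counts of the 40 loop sites of highest count in each library, by rank, with treated libraries in red and untreated ones in dark blue. The curves of the treated DUS1L libraries stay near 1000 over the first 20 ranks, while the second untreated DUS1L library falls from 555 to 16.

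Within the loop, positions 32 and 37 had the highest mean shares in treated libraries of both enzymes and in untreated DUS1L ones. In untreated DUS2L libraries positions 38 and 37 did. Position 37 held 2.86% and 3.95% of tRNA counts in treated DUS1L libraries, against 6.94% and 19.7% in untreated ones. Position 32 held 2.90% and 3.43% in treated DUS1L libraries, against 6.13% and 8.97% in untreated ones. In treated DUS1L libraries position 36 followed closely, with a mean of 3.16 ± 0.429% (SD, n = 2), against 3.501 ± 1.96% in untreated ones (SD, n = 2). Arg-CCT, which reads the AGG codon, gave 21.5% and 23.7% of the counts at position 32 in treated DUS1L libraries, against 49.0% and 79.8% in untreated ones.

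In DUS2L libraries, position 38 held 1.89% and 1.24% of tRNA counts with treatment, against 4.67% and 4.85% without. Position 37 held 2.87% and 2.50% in treated DUS2L libraries, against 4.34% and 4.68% in untreated ones. Position 32 held 3.10% and 2.26% in treated DUS2L libraries, against 3.97% and 4.12% in untreated ones. Leu-CAA, which reads the UUG codon, led position 38 with 39.4% and 39.7% of its counts in treated DUS2L libraries, against 49.7% and 49.0% in untreated ones.

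**Figure D3:**
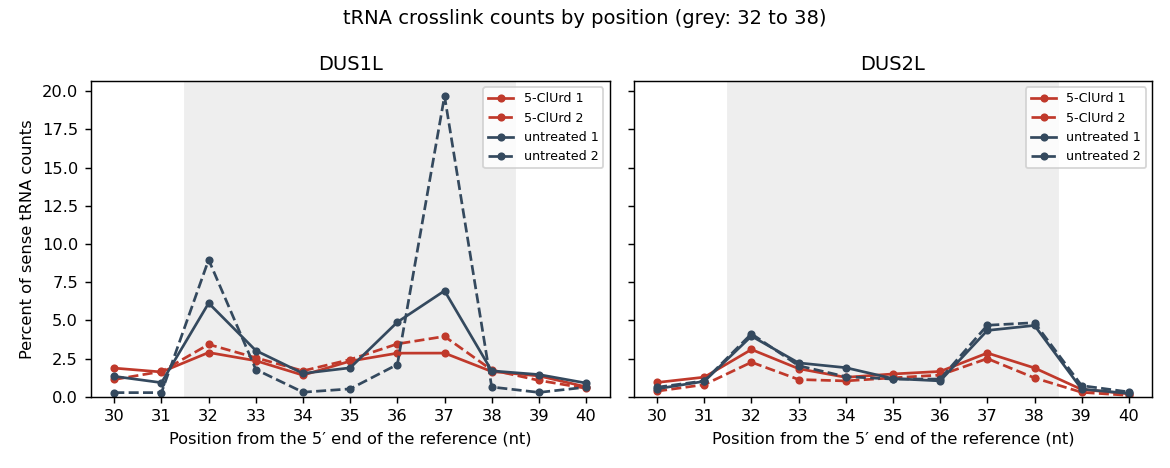
Percent of sense tRNA counts at each position from 30 to 40, one line per library, with treated libraries in red, untreated ones in dark blue and positions 32 to 38 in grey. Untreated DUS1L libraries reach 6.94% and 19.7% at position 37, and untreated DUS2L libraries are highest at 37 and 38.

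The families that made up the loop counts differed with enzyme and treatment. The 5 arginine families gave 37.7% and 39.3% of loop counts in treated DUS1L libraries, against 67.5% and 67.0% in untreated ones. They gave 12.1% and 15.1% in treated DUS2L libraries, against 22.2% and 20.4% in untreated ones. The 5 leucine families gave 24.3% and 22.6% in treated DUS2L libraries, against 36.1% and 39.7% in untreated ones. In DUS1L libraries leucine families gave 3.77% and 4.15% with treatment, against 0.312% and 0.0401% without. The 4 serine families gave 9.22% and 10.3% in treated DUS1L libraries, against 0.524% and 0.481% in untreated ones, and 15.4% and 12.98% in treated DUS2L libraries, against 16.6% and 17.8% in untreated ones. These makeups also reflect how many counts each family had outside the loop.

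For most families the leading loop position was shared between groups. It was the same with and without treatment in 24 of 29 families in DUS1L and in 32 of 41 in DUS2L. Families needed at least 20 loop counts in each group. Between treated DUS2L and treated DUS1L libraries it was the same in 29 of 38 families. His-GTG was one of the families whose leading position differed between treated and untreated DUS1L libraries. It had only 24 loop counts in the untreated ones, and the 11 at its leading position 33 all came from the second library.

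In DUS1L, no family was called for a change of its loop share with treatment in the test across all regions. Counts of 9 regions per family were compared relative to the family total, with edgeR's quasi-likelihood fit. Its p-values were Benjamini-Hochberg adjusted over all 243 regions. Of 27 loops tested, 0 passed an adjusted p of 0.05, and 0% of all regions did. At an unadjusted p under 0.05 there were 4 loops, and the Wald test of DESeq2 also called 0. The median loop log2 fold change was -0.35, against 0.92 over all regions. Without untreated replicate 1, 10 loops were called higher and 7 lower, and 43.6% of all regions were called. Without untreated replicate 2, 4 of 34 loops were called higher and 13 lower, and 45.8% of all regions were called. The lone untreated library is then assumed to vary like the treated ones. The 2 libraries of each group did not overlap in 16 of the 27 loops, 6 with treated above and 10 with treated below, and in 63.0% of all regions.

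The largest DUS1L loops by treated counts illustrate the spread. Arg-CCT held 22.4% and 28.5% of its family counts in the loop in treated DUS1L libraries, against 39.9% and 73.8% in untreated ones. The groups did not overlap, and the log2 fold change was -1.16 ± 0.480 (SE) with an adjusted p of 0.178 by edgeR. Phe-GAA held 19.4% and 24.0% in treated DUS1L libraries, against 40.8% and 53.3% in untreated ones, and Arg-ACG held 27.8% and 34.6%, against 47.3% and 69.9%. In all 3 the 2 untreated libraries differed more from each other than the 2 treated ones did. Of the other families named by treated counts, Arg-TCT, Ala-AGC, Lys-TTT, Tyr-GTA and Thr-CGT had both treated libraries below both untreated ones. So had Arg-TCG, by a small margin. The groups overlapped for Ser-TGA, Thr-AGT and Ile-TAT.

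In DUS2L, 5 of 45 loops fell as a share of their family and 0 rose, while 13.5% of all 384 regions were called, 9.11% higher and 4.43% lower. The median loop log2 fold change was -0.39, with 38 of 45 below 0, against 0.30 over all regions. Either untreated DUS2L library left out brought the count of called loops to 0. With treated replicate 1 left out it was 17, and with replicate 2 left out it was 8.

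Gly-GCC, which reads the GGC and GGU codons, showed the largest fall of a loop in DUS2L. Its loop held 4.43% and 3.53% of family counts in treated libraries, against 12.5% and 19.2% in untreated ones. The log2 fold change was -1.996 ± 0.502 (SE) with an adjusted p of 0.0128 by edgeR. The call was lost under total sense scaling, where the value was -0.22, and under TMM and DESeq2 size factors. Arg-TCT, which reads AGA, held 22.69% and 22.72% in its loop in treated libraries, against 68.4% and 61.4% in untreated ones. The groups lay far apart, and the log2 fold change was -1.51 ± 0.320 (SE) with an adjusted p of 0.00484 by edgeR.

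Asp-GTC, the family that reads aspartate codons, held 2.88% and 2.24% in treated DUS2L libraries, against 6.17% and 5.51% in untreated ones. Its log2 fold change was -1.19 (adjusted p = 0.00861 by edgeR). Arg-TCG, which reads CGA, held 37.3% and 29.9% in treated libraries, against 57.2% and 53.9% in untreated ones, with a log2 fold change of -0.73 (adjusted p = 0.00659 by edgeR). Leu-CAA held 33.2% and 36.8% in treated libraries, against 49.2% and 46.3% in untreated ones, with a log2 fold change of -0.45 (adjusted p = 0.0128 by edgeR). In all 5 families both treated libraries lay below both untreated ones. Such a lack of overlap was common in DUS2L. It held for 29 of 45 loops, 5 with treated above and 24 with treated below, and for 63.8% of all regions. Without sites above 500 counts, Arg-TCT, Asp-GTC and Leu-CAA lost the call, and Leu-CAA lost it also in the Wald test of DESeq2 and counted from the anticodon. Of the families named by treated counts, Lys-TTT, Arg-CCT, Ala-AGC, Leu-CAG, Leu-TAA and Ser-TGA also had treated libraries below untreated ones without passing the test. For Glu-TTC the groups overlapped.

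**Figure D4:**
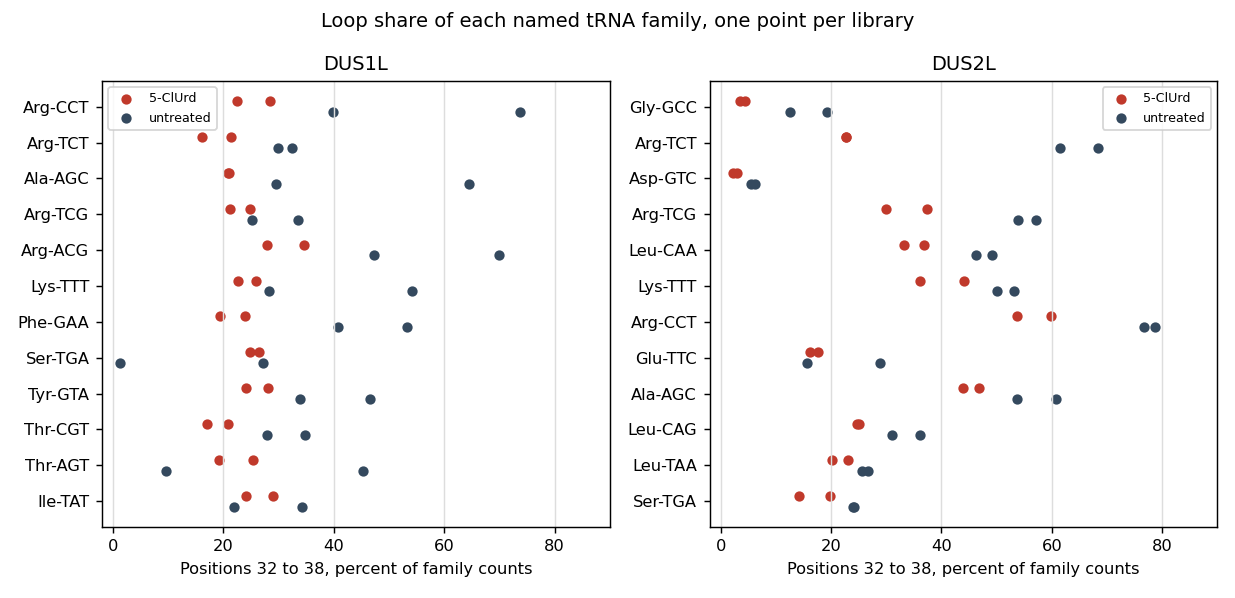
Percent of family counts at positions 32 to 38 for the 12 families named in each enzyme, one point per library, with treated libraries in red above untreated ones in dark blue. In DUS2L the first 5 families are those called; the DUS1L panel shows the wide gap between untreated libraries.

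What is scaled changes the direction. Scaled to all sense counts of the library instead of the family total, the median loop log2 fold change was 0.78 in DUS1L, where all regions had a median of 1.72. There 4 loops were called higher and 2 lower, of 71 and 6 over all regions. In DUS2L the median was 0.46, where all regions had a median of 1.24, with 13 loops called higher and 8 lower, of 167 and 36 over all regions. TMM factors called 0 loops higher and 6 lower in DUS1L, of 24 and 23 over all regions. In DUS2L they called 9 loops higher and 12 lower, of 112 and 69 over all regions.

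In DUS1L no loop was called, so 0 members of any list by amino acid, anticodon or structure could be. Type II families are the tRNAs with a long variable arm (leucine, serine and selenocysteine). Their 4 tested loops had log2 fold changes above 0 in DUS1L, with a median of 0.55, against -0.35 over all loops. The 3 alanine loops were below 0, with a median of -1.57. In DUS2L, the 10 type II loops all had a log2 fold change below 0, as had most of the 45 loops tested. The type II median was -0.55, against -0.39 over all loops, with 1 of 10 called, against 5 of 45. Of the 4 tested families with intron-bearing genes, 2 were called lower, with a median of -0.63. By the wobble base, position 34 of the anticodon numbering, families with G had a median of -0.71 over 8 loops with 2 called and those with T had -0.55 over 14 with 2 called. Families with A had -0.31 over 8 with 0 called and those with C had -0.27 over 15 with 1 called. Families with 0, 1 and 2 T in the anticodon had medians of -0.32, -0.50 and -0.39, near the -0.39 of all loops. The 23 families of 4-codon boxes had a median of -0.43 and the 22 others -0.38.

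The DUS2L minus DUS1L difference of the treatment effects was called in 0 of 27 loops, and in 0% of all regions. At an unadjusted p under 0.05 there were 2 loops, and the Wald test of DESeq2 called 1. The log2 differences lay between -3.60 and 1.62. Arg-CCT had 0.70 and Arg-TCT -0.78, and neither passed.

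Single positions were tested in the same way over all positions of all families. In DUS1L, 1 of 189 loop sites rose and 3 fell, 4 in all, while 6.85% of all 1576 positions were called, 6.41% higher and 0.444% lower. The median log2 fold change was 0.88 over loop sites and 1.52 over all positions. With treated replicate 1 left out 1 loop site was called, and with treated replicate 2 left out 3. With untreated replicate 1 left out the count was 32, and with untreated replicate 2 left out 31.

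Phe-GAA, which reads phenylalanine codons, had the largest fall in DUS1L, at position 37. That position held 3.96% and 6.17% of family counts in treated DUS1L libraries, against 25.7% and 50.9% in untreated ones. The log2 fold change was -2.92 ± 0.592 (SE) with an adjusted p of 0.000280 by edgeR. In raw counts its main reference had 1269 and 1061 in treated libraries, against 1125 and 555 in untreated ones. The family total was 32275 and 17362 in treated libraries, against 4379 and 1090 in untreated ones. The counts at the site overlapped between the groups while the family totals lay far apart. The call was lost with either treated library left out and without sites above 500 counts, where the value was -0.29.

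The other 2 sites that fell also had high raw counts in both groups. Arg-CCT at position 32 held 6.48% and 9.20% in treated DUS1L libraries, against 28.7% and 69.4% in untreated ones (log2 fold change -2.64, adjusted p = 0.000319 by edgeR). Its highest reference had 1247 and 1047 counts in treated libraries, against 1101 and 336 in untreated ones. Arg-ACG at position 37 held 7.97% and 11.3% in treated libraries, against 28.2% and 64.5% in untreated ones (log2 fold change -2.27, adjusted p = 0.00845 by edgeR). Its highest reference had 1237 and 1060 counts in treated libraries, against 1101 and 305 in untreated ones. Both calls were lost with either treated library left out. In the first treated library the 3 sites had 1237 to 1269 counts on their highest reference, in the range where the ranks above were flat.

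Met-CAT, the elongator methionine tRNA, was called higher at position 33. It had 109 and 73 counts there in treated DUS1L libraries, against 2 and 0 in untreated ones. These were 0.406% and 0.481% of the family in treated libraries, against 0.0412% and 0% in untreated ones. The ratio of pooled shares was 11.1, with an exact 95% counting interval from 3.03 to 92.3, and the adjusted p was 0.0476 by edgeR. Such intervals, here and below, cover counting error only and leave out the spread between libraries. The call was lost in 6 of 12 alternatives, namely TMM, DESeq2 size factors, the replicate block, sites above 500 counts left out, and the first treated or the first untreated library left out.

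In DUS2L, 5 of 265 loop sites rose and 18 fell, 23 in all, while 11.3% of all 1908 positions were called, 8.02% higher and 3.25% lower. The median log2 fold change was -0.19 over loop sites and 0.56 over all positions. With untreated replicate 1 left out 5 sites were called, and with untreated replicate 2 left out 7. By position, the calls were 2 higher and 4 lower at 32, 1 and 3 at 33, 1 and 5 at 34, and 1 and 1 at 35. There were 0 higher and 1 lower at 36, 0 and 2 at 37, and 0 and 2 at 38.

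Lys-TTT, which reads lysine codons, changed in both directions within its loop. Position 32 held 4.69% and 3.21% of the family in treated DUS2L libraries, against 0.867% and 0.332% in untreated ones (log2 fold change 2.77, adjusted p = 0.00204 by edgeR). Position 34 held 7.64% and 6.04% in treated libraries, against 1.54% and 2.12% in untreated ones (log2 fold change 1.89, adjusted p = 0.00192 by edgeR). Positions 33 and 35 rose as well, by log2 fold changes of 2.06 and 1.04. All 4 rises lost the call with either untreated library left out and without sites above 500 counts, where position 33 had -0.073. Position 37 of the same loop held 12.68% and 12.73% in treated libraries, against 40.2% and 42.96% in untreated ones, and fell by 1.71 on the log2 scale. The loop as a whole did not pass the test, with a log2 fold change of -0.36 (adjusted p = 0.245 by edgeR). The main reference had 640 and 541 counts at position 35 in treated libraries, against 35 and 69 in untreated ones, and 619 and 612 at position 37, against 266 and 363.

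Glu-TTC, which reads glutamate codons, rose at position 32. The position held 3.96% and 2.45% of the family in treated DUS2L libraries, against 1.19% and 1.51% in untreated ones (log2 fold change 1.25, adjusted p = 0.0316 by edgeR). The groups did not overlap, and the call was lost in 6 of 12 alternatives, among them either untreated library or the first treated one left out.

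Among the falls, Gly-GCC at position 36 was the largest. It held 0.325% and 0.144% of the family in treated DUS2L libraries, against 6.84% and 10.9% in untreated ones, from 30 and 11 counts against 64 and 121. The log2 fold change was -5.22 ± 0.818 (SE) with an adjusted p of 3.05e-08 by edgeR. Arg-TCG fell at positions 33 and 32. Position 33 held 1.63% and 2.27% in treated libraries, against 16.2% and 15.1% in untreated ones (log2 fold change -3.00, adjusted p = 1.14e-22 by edgeR). Position 32 held 2.21% and 1.63% in treated libraries, against 10.3% and 10.7% in untreated ones (log2 fold change -2.45, adjusted p = 1.83e-11 by edgeR). These 3 calls held under all 12 alternatives run for each.

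Position 37 of Arg-TCG held 27.6% and 23.5% in treated DUS2L libraries, against 24.0% and 21.7% in untreated ones. The treated range overlapped the untreated one there, unlike at positions 32 and 33. Arg-TCT at position 35 held 1.59% and 1.23% in treated libraries, against 12.6% and 3.27% in untreated ones (log2 fold change -2.47, adjusted p = 0.0116 by edgeR). Ile-TAT, which reads AUA, held 3.44% and 2.14% at position 34 in treated libraries, against 19.3% and 9.34% in untreated ones (log2 fold change -2.34, adjusted p = 0.0185 by edgeR). In both, the untreated libraries differed from each other by more than the treated ones did, and the call was lost with either untreated library left out. Ile-TAT lost it also under the 3 other scalings. Arg-ACG at position 34, its anticodon's first base, had 2 and 0 counts in treated DUS2L libraries, against 8 and 9 in untreated ones. The ratio of untreated over treated pooled shares was 21.3, with an exact 95% counting interval from 5.06 to 190.3, and the adjusted p was 0.0458 by edgeR. The call was lost in 8 of 11 alternatives, each library left out among them.

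**Figure D5:**
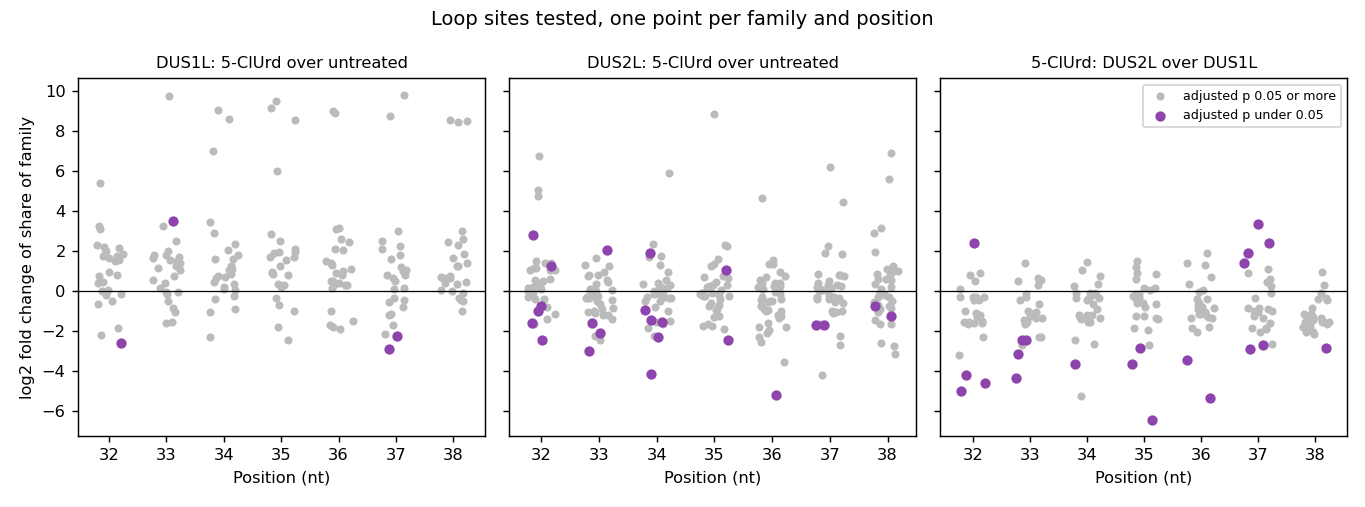
log2 fold change of the share of family counts for each loop site tested, by position, with sites at an adjusted p under 0.05 in purple. Each point is a family and position; the panels show treated over untreated in DUS1L and in DUS2L, and treated DUS2L over treated DUS1L, where 5 purple points lie above 0 and 16 below.

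The sites with the largest share of treated tRNA counts were few. In DUS1L they were led by position 36 of Ala-AGC, which reads alanine codons through inosine at the wobble base, with 0.608% and 0.835% of tRNA counts in treated libraries, against 0.789% and 0.559% in untreated ones. Position 32 of Arg-CCT had 0.624% and 0.812% in treated DUS1L libraries, against 3.00% and 7.16% in untreated ones. Position 37 of Arg-TCG had 0.525% and 0.698% in treated libraries, against 1.63% and 5.69% in untreated ones. Position 32 of Ser-TGA, a serine family, had 0.445% and 0.595% in treated libraries, against 0.0604% and 0.0136% in untreated ones. By these shares of tRNA counts, Ser-TGA lay higher in both treated libraries, Arg-CCT and Arg-TCG lay lower, and Ala-AGC overlapped. As shares of the family, only Arg-CCT of these 4 sites kept its direction. Ser-TGA held 16.5% and 19.4% in treated libraries, against 24.9% and 1.27% in untreated ones, the last from 1 count. Arg-TCG held 8.49% and 11.1%, against 7.58% and 27.5%, so both overlapped. Ala-AGC held 8.22% and 10.3%, against 43.8% and 20.5%, and lay lower. The other 6 of the 10 were positions 35 of Ala-AGC, 33 of Arg-CCT, 32 of Arg-TCT, 37 of Arg-ACG, 33 of Thr-CGT and 37 of Leu-TAA.

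In DUS2L, position 32 of Arg-CCT led with 0.735% and 0.726% of tRNA counts in treated libraries, against 0.577% and 0.504% in untreated ones. As a share of the Arg-CCT family it lay lower with treatment, at 41.7% and 40.5%, against 52.9% and 50.2% without. Position 38 of Leu-CAA had 0.744% and 0.491% in treated libraries, against 2.32% and 2.38% in untreated ones. As a share of its family, that site held 17.5% and 18.5% in treated libraries, against 31.8% and 29.1% in untreated ones. Position 38 of Leu-CAG, another leucine family, had 0.488% and 0.340% in treated libraries, against 1.39% and 1.30% in untreated ones. Position 36 of Ala-AGC had 0.483% and 0.418% in treated libraries, against 0.0715% and 0.0491% in untreated ones. The leucine sites were lower and the alanine site higher in both treated libraries. Ser-TGA and Ser-CGA at 32, Leu-TAA, Lys-TTT and Leu-CAA at 37 and Glu-TTC at 34 completed the 10.

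Between treated DUS2L and treated DUS1L libraries, 1 of 27 loops was called, while 6.58% of all 243 regions were, 3.29% higher and 3.29% lower. Phe-GAA held 54.3% and 55.0% of its counts in the loop in treated DUS2L libraries, against 19.4% and 24.0% in treated DUS1L ones. The log2 fold change was 1.33 ± 0.346 (SE) with an adjusted p of 0.0438 by edgeR, and it lost the call with any treated library left out and with either untreated DUS2L library left out. Scaled to all sense counts, the same comparison was -2.25. Of the others named by treated counts, Arg-CCT had 1.16, Ala-AGC 1.12 and Arg-ACG 0.83, without passing the test. The enzymes' site files carry different processing names, so enzyme and file making cannot be told apart in this comparison.

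Of 189 loop sites, 5 were higher and 16 lower in treated DUS2L than in treated DUS1L libraries, 21 in all, while 20.2% of all 1607 positions were called, 5.1% higher and 15.1% lower. With treated DUS1L replicate 1 or 2 left out 1 and 2 sites were called, and with untreated DUS1L replicate 1 or 2 left out 42 and 59. With treated DUS2L replicate 2 left out the count was 5. All but 1 of the sites called higher lay at position 37, which is not the same base of the loop in every family. At that position Lys-CTT and Met-CAT were called lower. Of the 27 sites tested there, 18 had a log2 fold change below 0, with a median of -0.91. Phe-GAA at position 37 held 51.0% and 52.8% of the family in treated DUS2L libraries, against 3.96% and 6.17% in treated DUS1L ones (log2 fold change 3.36, adjusted p = 2.58e-08 by edgeR). Arg-ACG at 37 held 46.7% and 52.8%, against 7.97% and 11.3%, with a log2 fold change of 2.37. Ala-AGC at 37 held 12.2% and 8.28%, against 2.76% and 2.78%, with a log2 fold change of 1.89. Arg-TCG at 37 held 27.6% and 23.5%, against 8.49% and 11.1%, with a log2 fold change of 1.38. Arg-CCT at 32 held 41.7% and 40.5%, against 6.48% and 9.20%, with a log2 fold change of 2.39. The highest reference behind each had 1168 counts or more in the first treated DUS1L library, except Ala-AGC with 467. Scaled to all sense counts, all 5 log2 fold changes were below 0. Ala-AGC lost the call in 8 of 17 alternatives, Arg-TCG in 7 of 15 and Arg-ACG in 5 of 16, beside that reversal.

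Sites called lower in DUS2L included other positions of the same loops. In Phe-GAA, position 36 had 2 and 0 counts in treated DUS2L libraries, against 938 and 851 in treated DUS1L ones. The treated DUS1L over treated DUS2L ratio of pooled shares was 38.9, with an exact 95% counting interval from 10.8 to 321.5, which leaves out the spread between libraries. Position 32 of Phe-GAA had 1 and 0 counts, against 572 and 239, with a ratio of 35.3 and an interval from 6.31 to 1395. In Arg-ACG, position 32 had 2 and 0 counts, against 607 and 328, with a ratio of 25.97 and an interval from 7.17 to 214.8. Position 37 held 94.9% of the loop counts of tRNA-Phe-GAA-1-5 in treated DUS2L libraries pooled, against 22.5% in treated DUS1L ones.

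Arg-CCG, which reads CGG, was lower in DUS2L at positions 32, 33 and 35. Position 33 held 0.145% and 0.0317% of the family in treated DUS2L libraries, against 1.91% and 1.46% in treated DUS1L ones (log2 fold change -4.35, adjusted p = 0.00367 by edgeR). Position 32 held 0.145% and 0.0635%, against 2.16% and 1.67% (log2 fold change -4.24). Position 35 had 0 counts in both treated DUS2L libraries, against 25 and 33 in treated DUS1L ones. With 3 counts over the group as the floor, it was at least 2.73-fold lower in DUS2L.

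The peaks that the authors called gave a coarser view. Peaks overlapping positions 32 to 38 by at least 1 nt numbered 30 of 216 and 28 of 179 in treated DUS1L libraries, against 28 of 98 and 4 of 37 in untreated ones. In DUS2L they numbered 34 of 163 and 37 of 175 with treatment, against 36 of 114 and 38 of 114 without. The highest peak lay at positions 36 and 37 of Arg-ACG in the first treated DUS1L library, with the authors' score of 2064. It lay at 31 to 34 of Glu-TTC, with 2752, in the first treated DUS2L library, and at 37 and 38 of Leu-CAA in both untreated ones.

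Antisense counts at the same positions were few. They numbered 23 and 9 in treated DUS1L libraries, against 3 and 0 in untreated ones, and 17 and 149 in treated DUS2L libraries, against 23 and 35 in untreated ones. The second treated DUS2L library stood apart with 0.395% of loop counts on the antisense strand.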

How the data were processed

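The members and lists were chosen with earlier results of these data known. iCLIP sites were measured in 8 libraries. The deposited site files give raw counts per nucleotide and strand, one file per library, per the file contents; the deposited peak files give a summed count as score. STAR 2.7.0f and hg38 are named in the submitters' processing notes; handling of molecular identifiers is not given in the sources used here. Near-identical tRNA copies share reads, so references were summed to families; 390 of 413 gene names matched a RefSeq symbol.

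Sense counts per family and region, and per family and position, were tested with edgeR 4.0.16 (quasi-likelihood, R 4.3.3) with the log family total as offset. Families needed 20 counts in each fitted library and features 10 counts in all; the threshold was 0.05. Treated and untreated libraries were compared within an enzyme; the difference of effects and the comparison of treated libraries used all 8. Alternatives were total sense scaling, TMM, DESeq2 1.42.0, minimum counts of 1 and 50, the replicate number as a block, sites above 500 counts left out, positions counted from the anticodon, and each library left out. The fits were tested on simulated data. Tables were made with pandas 2.3.3 and scipy 1.17.1, and figures with matplotlib 3.10.9.

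Families named were those called without overlap between the groups (at most 10 rises and 8 falls), filled to 12 by treated loop counts. Sites named were the 10 of largest treated share per enzyme and up to 6 called in each direction; others were chosen after their values were seen. p-values measure the spread between these libraries.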

Additional observations from a re-analysis of the deposited data

Results flagged for a closer look

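Named sites were looked at again where both treated libraries lay above both untreated ones in one enzyme and below them in the other. The differences between the enzymes were not tested at these sites. Position 34 of Arg-ACG had a treated minus untreated difference of 0.809 percentage points of the family in DUS1L and -1.52 in DUS2L. Position 35 of Arg-CCG had 0.137 points in DUS1L and -0.268 in DUS2L. Position 33 of Arg-CCG had 1.02 points in DUS1L and -0.372 in DUS2L. The second untreated DUS1L library had 0, 0 and 1 counts at these 3 sites.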

How the results depend on the processing

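Numbers of called loops or loop sites depended on the scaling and on single libraries. They are given below for loops in DUS1L, in DUS2L, in the difference of effects and in treated DUS2L over treated DUS1L, then for sites in DUS1L, in DUS2L and between enzymes. Total sense scaling called 6, 21, 4, 9, 69, 68 and 94. TMM called 6, 21, 4, 7, 47, 59 and 46, and DESeq2 size factors 4, 21, 4, 5, 45, 59 and 44. The DESeq2 Wald test called 1 loop for the difference of effects and 2 between enzymes, with 16 DUS1L sites and 13 between enzymes. A minimum of 1 count called 8 DUS2L loops. Counted from the anticodon, which left few families with a sequence, 1 DUS1L, 0 DUS2L and 2 between-enzyme loops were called, with 2, 0 and 2 sites. Without sites above 500 counts, 2 DUS2L loops, 12 DUS2L sites and 10 between-enzyme sites were called, and the DUS1L loop share difference was 2.41 points.

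The same replicate numbers did not deviate together (correlations of -0.068 and -0.085 in DUS1L and DUS2L). With the replicate number as a block, 0 loops were called in DUS1L, 5 in DUS2L, 0 for the difference and 0 between enzymes. The block gave 5 DUS1L, 17 DUS2L and 14 between-enzyme sites.

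Signs of single members also turned with the scaling. In DUS1L, total scaling gave Ala-AGC 0.71, Tyr-GTA 0.38, Thr-CGT 1.91, Thr-AGT 2.11 and Ile-TAT 0.78 on the log2 scale. TMM gave Thr-CGT 0.50 and Thr-AGT 0.73, and size factors 0.63 and 0.73. In DUS2L, total scaling gave Lys-TTT 1.25, Arg-CCT 0.52, Glu-TTC 0.50, Ala-AGC 2.39 and Leu-TAA 0.20. TMM gave Lys-TTT 0.45 and Ala-AGC 1.58, and size factors 0.44 and 1.57. Between enzymes, total scaling gave Phe-GAA -2.25, Arg-CCT -1.25, Ala-AGC -0.98, Arg-TCT -4.24, Arg-TCG -2.36, Arg-ACG -2.43, Leu-TAA 0.34, Tyr-GTA -2.21 and Thr-CGT -1.49. At sites it gave Phe-GAA:37 -0.21, Arg-CCT:32 -0.013, Arg-ACG:37 -0.88, Ala-AGC:37 -0.19 and Arg-TCG:37 -1.53. TMM gave Phe-GAA -0.35, Arg-TCT -2.346, Arg-TCG -0.47, Arg-ACG -0.53, Ser-TGA 1.70, Leu-TAA 2.23, Tyr-GTA -0.31 and Ser-GCT 1.62. Size factors gave Phe-GAA -0.52, Arg-TCT -2.526, Arg-TCG -0.64, Arg-ACG -0.69, Ser-TGA 1.497, Leu-TAA 2.06, Tyr-GTA -0.49 and Ser-GCT 1.41. Without sites above 500 counts, DUS1L Arg-CCT had 0.56, Arg-TCT 0.24 and Lys-TTT 0.41. DUS2L Lys-TTT then had 0.13, Glu-TTC 0.079 and Lys-TTT:33 -0.073, and between enzymes Arg-CCT had -0.33 and Arg-TCT -0.40. Counted from the anticodon, position 34 of DUS2L Ile-TAT had 0.40, but there it is linear position 35, a different base.

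With each library left out in turn, called loops numbered 0 to 17 in DUS1L, 0 to 17 in DUS2L, 0 to 10 for the difference and 0 to 15 between enzymes. Called sites numbered 1 to 32, 5 to 33 and 1 to 59. The loop share difference ran from -16.2 to -8.27 points in DUS1L and from -8.50 to -5.22 in DUS2L. Signs turned for Ile-TAT (-0.37 to 0.27), Ser-TGA (-0.093 to 4.33) and Thr-AGT (-1.02 to 1.21) in DUS1L and Glu-TTC (-0.77 to 0.12) in DUS2L. The causes were not tested. Of the single members under the settings that keep all libraries, 362 results kept direction and call, 48 lost the call, 23 gained it and 57 turned. The shallow second untreated DUS1L library limits which DUS1L families could be tested, and 2 libraries a group limit every p.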
